A study of Mus musculus with 11 samples.

Results

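Hair follicle stem cell and upper-follicle genes were followed in sorted mouse keratinocytes from wounded and unwounded back skin. The set holds 10 genes, *Krt15*, *Krt79*, *Cd34*, *Lhx2*, *Sox9*, *Lgr5*, *Lrig1*, *Nfatc1*, *Tcf7l1* and *Postn*, of the 24421 genes listed in each count table. They were chosen by name for their place in the follicle, with their read counts scaled to library size (CPM) in these same libraries in view. Their RNA levels and fold changes are therefore given as a description and not as a test. All 10 were detected in every library and were among the 14045 genes that passed the expression filter.

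The study asked how wound-edge keratinocytes respond to injury and how that response depends on the transcription factor GRHL3. RNA-seq gave 7 libraries, 2 from WT unwounded, 2 from WT wounded, 1 from *Grhl3*-cKO unwounded and 2 from *Grhl3*-cKO wounded keratinocytes. Counts on genes were 15488699 and 16807451 for WT unwounded, 16653948 and 15418631 for WT wounded, 13497283 for *Grhl3*-cKO unwounded, and 15223569 and 14279568 for *Grhl3*-cKO wounded. ATAC-seq, which maps open chromatin, gave 1 peak list for each of the same 4 conditions. The labels give the mice as C57BL/6 and the genotypes as WT and GRHL3 KO. The knockout carried floxed *Grhl3* alleles deleted by Cre under the *Krt14* promoter, which is active in keratinocytes, and the controls were *Krt14-Cre*-WT littermates of both sexes aged 8 weeks. Back skin had been shaved and treated with hair-removal cream before 4 mm full-thickness punch wounds were made. Wounded samples came from 1 mm of margin at day 3 and unwounded samples from skin away from the wound. The epidermis was loosened with trypsin, and cells with intermediate or high CD49F were sorted without those bearing CD45, CD31 or TER119. Such a gate takes follicle keratinocytes together with interfollicular ones. Each ATAC-seq sample pooled wounds of 2 mice, and the peak lists have no replicates. Nothing in the labels ties an RNA library to a mouse, and p-values measure only the spread between these libraries, which may be technical.

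The hair follicle grows down from the epidermis and renews itself from stem cells that rest in the bulge, a niche in its outer root sheath. Above the bulge lie the isthmus, the junctional zone and the infundibulum, which supply the upper follicle and the sebaceous gland and have their own progenitors. After a skin wound, cells from the bulge and from the upper follicle can move into the new epidermis, where they lose follicle markers over time.

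Several libraries stood apart. The targeted gene *Grhl3* was at 122 and 83.2 CPM in WT unwounded, 109.9 and 90.02 CPM in WT wounded, 76.2 CPM in *Grhl3*-cKO unwounded, and 116 and 104 CPM in *Grhl3*-cKO wounded libraries. These levels do not separate the genotypes, and a count over the whole gene does not check the deleted part, so every genotype direction here rests on the label. The paper reports a check of the deletion in its mice by qPCR between the loxP sites and by GRHL3 staining, which are not measures of these libraries. The single library labelled *Grhl3*-cKO unwounded held 14854 counts of *Xist* and 0 of 4 Y-linked genes, against 3 to 32 and 2580 to 3589 counts in each of the other 6. Its sample title and its file also carry different replicate numbers, and the title was followed (replicate 2). WT wounded replicate 1 stood apart for hair shaft genes. The summed level of 13 hair germ, matrix and shaft genes was 362 CPM in it and 66.9 CPM in the other WT wounded library, with 50.4 to 97.2 CPM in the remaining libraries. Calls of the 10 follicle genes, and their correlations, are given with and without these libraries where they rest on them.

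Levels were compared between genes as CPM per kb of exon, in which longer genes gain no advantage. In WT unwounded keratinocytes *Krt15* was the highest of the set, at 1594 CPM per kb, and *Krt79* followed at 376. *Sox9* was at 155 and *Postn* at 140.2 CPM per kb. Their single-library values, 152 and 158 for *Sox9* and 129.9 and 151 for *Postn*, did not overlap but lay close. *Lrig1* came next at 79.0, then *Nfatc1* at 33.1 and *Lhx2* at 18.2 CPM per kb. *Cd34* (4.78 and 7.28 CPM per kb) and *Lgr5* (5.49 and 6.08) did not differ beyond their spread, and *Tcf7l1* was lowest, at 2.81. The set thus spans an abundant keratin and a transcription factor with between 109 and 304 counts in a library.

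The bulge genes of the set include a keratin and a surface protein. *Krt15* encodes a type I keratin of basal cells that is strongest in the bulge. It was at 2881 and 2751 CPM in WT unwounded, 2189 and 2010.1 CPM in WT wounded, 4746 CPM in *Grhl3*-cKO unwounded, and 2269.8 and 2517 CPM in *Grhl3*-cKO wounded libraries. All 4 wounded libraries lay below all 3 unwounded ones. *Cd34* encodes a sialomucin on the surface of mouse bulge stem cells. It was at 34.9 and 53.1 CPM in WT unwounded, 27.9 and 24.0 CPM in WT wounded, 63.3 CPM in *Grhl3*-cKO unwounded, and 26.0 and 19.9 CPM in *Grhl3*-cKO wounded libraries. Wounded and unwounded libraries did not overlap. *Postn* encodes periostin, a matricellular protein. It was at 1131 and 1310.1 CPM in WT unwounded, 1147 and 1039.6 CPM in WT wounded, 976 CPM in *Grhl3*-cKO unwounded, and 787 and 816 CPM in *Grhl3*-cKO wounded libraries. The 3 libraries labelled *Grhl3*-cKO were the lowest of the 7.

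Among the transcription factors, *Lhx2* encodes a LIM homeodomain protein that keeps bulge cells in an undifferentiated state. It was at 85.3 and 74.5 CPM in WT unwounded, 54.5 and 31.7 CPM in WT wounded, 65.9 CPM in *Grhl3*-cKO unwounded, and 30.7 and 38.7 CPM in *Grhl3*-cKO wounded libraries. The unwounded libraries were again the 3 highest. *Sox9* encodes an HMG-box factor needed to form and keep follicle stem cells. It was at 655 and 629.6 CPM in WT unwounded, 668 and 457 CPM in WT wounded, 692 CPM in *Grhl3*-cKO unwounded, and 423 and 459 CPM in *Grhl3*-cKO wounded libraries. WT wounded replicate 1 lay with the unwounded libraries, and the other 3 wounded libraries lay below. *Nfatc1* encodes a calcineurin-dependent factor that holds bulge stem cells in quiescence. It was at 257 and 237 CPM in WT unwounded, 225 and 167 CPM in WT wounded, 379.7 CPM in *Grhl3*-cKO unwounded, and 187 and 179 CPM in *Grhl3*-cKO wounded libraries. Every wounded library was below every unwounded one. *Tcf7l1*, also called Tcf3, encodes a DNA-binding partner of beta-catenin that can act as a repressor in these cells. It was at 9.23 and 12.8 CPM in WT unwounded, 18.3 and 8.89 CPM in WT wounded, 12.4 CPM in *Grhl3*-cKO unwounded, and 7.16 and 7.84 CPM in *Grhl3*-cKO wounded libraries. The highest value was that of WT wounded replicate 1, and the groups overlapped between wounded and unwounded skin.

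The remaining members are receptors and upper-follicle genes. *Lgr5* encodes an R-spondin receptor of cells in the lower bulge and hair germ. It was at 56.3 and 62.4 CPM in WT unwounded, 55.6 and 40.99 CPM in WT wounded, 101 CPM in *Grhl3*-cKO unwounded, and 30.6 and 46.1 CPM in *Grhl3*-cKO wounded libraries. The unwounded libraries were the 3 highest, with WT wounded replicate 1 close below them. *Lrig1* encodes a transmembrane inhibitor of ERBB receptor signalling and marks junctional zone progenitors. It was at 467 and 416 CPM in WT unwounded, 394 and 296 CPM in WT wounded, 482 CPM in *Grhl3*-cKO unwounded, and 271 and 331 CPM in *Grhl3*-cKO wounded libraries. Here too the wounded libraries were the 4 lowest. *Krt79* encodes a type II keratin of the upper follicle canal. It was at 2038 and 1535 CPM in WT unwounded, 1489 and 1040.5 CPM in WT wounded, 991 CPM in *Grhl3*-cKO unwounded, and 858 and 1415 CPM in *Grhl3*-cKO wounded libraries. It was the member whose *Grhl3*-cKO unwounded value lay below both WT unwounded values by the widest ratio, and the *Grhl3*-cKO wounded libraries fell on either side of it. In these bulk samples, fewer cells of a type and less RNA per cell cannot be told apart.

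**Figure D1:**
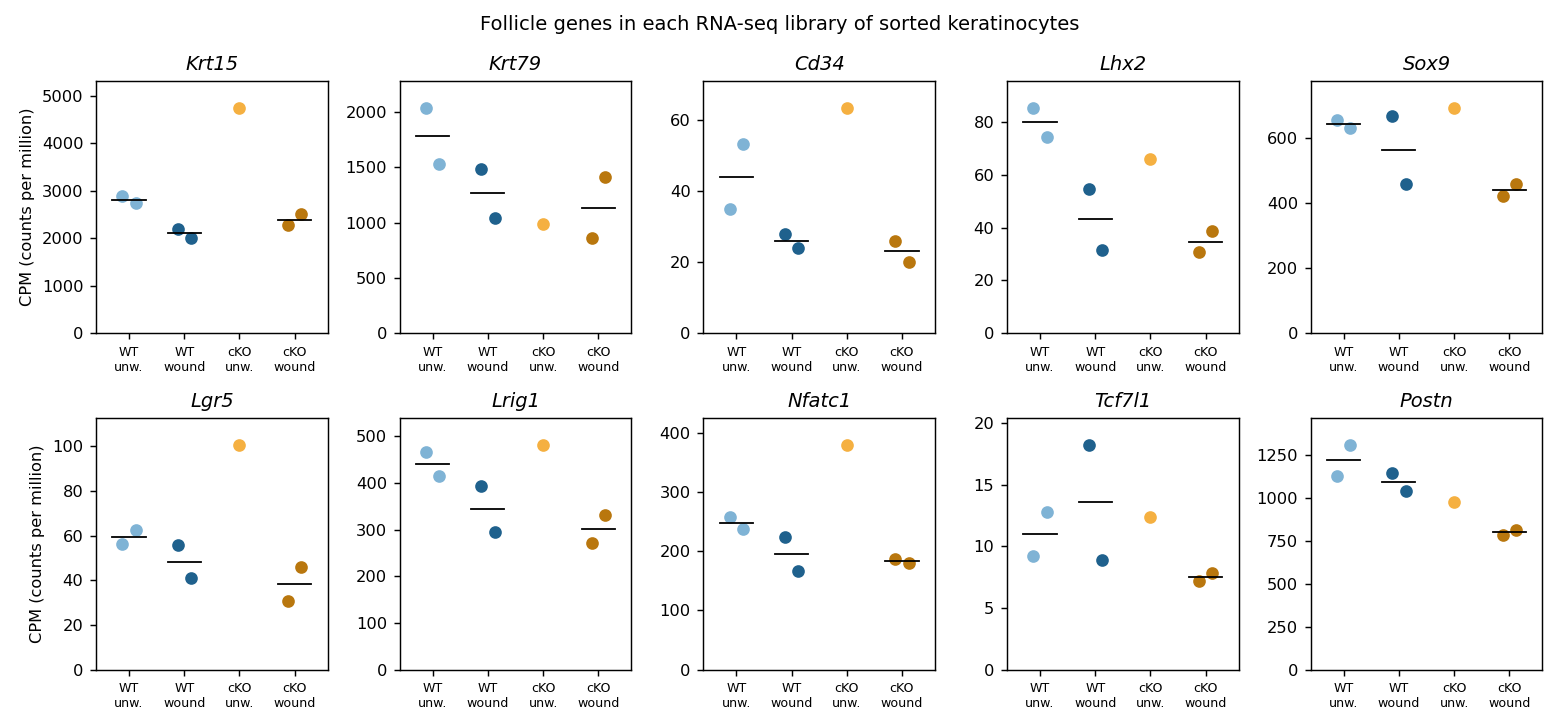
Each panel shows 1 gene in the 7 RNA-seq libraries as CPM on a linear axis from 0, with a point for each library, grouped by genotype label and wounding, and a bar at the mean of each group of 2. For *Krt15* the single *Grhl3*-cKO unwounded library sits at 4746 CPM and the 4 wounded libraries between 2010.1 and 2517 CPM.

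The 10 genes varied together to different degrees. Over the 7 libraries the highest value exceeded the lowest by a ratio of 1.64 for *Sox9* to 3.29 for *Lgr5*, and the coefficient of variation was 18.2% for *Postn* to 46.0% for *Cd34*. Without the *Grhl3*-cKO unwounded library the coefficient was 13.9% in place of 33.5% for *Krt15*, 17.2% in place of 31.1% for *Nfatc1* and 24.1% in place of 39.9% for *Lgr5*, and without WT wounded replicate 1 it was 24.1% in place of 35.4% for *Tcf7l1*. Of the 45 pairs of members, 43 had a positive Pearson's r of log2 CPM over the 7 libraries, with a median r of 0.68. The median over all pairs of genes tested was 2.7e-04. Strongest was *Sox9* with *Lrig1* (r = 0.94), followed by *Lhx2* with *Lrig1* (r = 0.94) and *Krt15* with *Nfatc1* (r = 0.92). The negative pairs were *Krt79* with *Cd34* (r = -0.0052) and *Krt15* with *Krt79* (r = -0.091). Each library was then left out, a choice made after seeing the data, which gave 39 to 44 positive pairs and a median r of 0.57 to 0.74 over 6 libraries. Without the *Grhl3*-cKO unwounded library *Krt15* with *Nfatc1* was at 0.69 and *Krt15* with *Lgr5* at 0.45 in place of 0.84, while *Krt79* with *Cd34* turned to 0.39, *Krt15* with *Krt79* to 0.66 and *Krt15* with *Tcf7l1* from 0.18 to -0.16. These points share the same 7 libraries, their wounding and their genotype labels, and the values are a description.

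Other genes whose pattern over the 7 libraries was most like a member were found by the same measure. For the bulge genes these were *Tmem65* (r = 0.99) and *Tmed3* (0.98) with *Krt15*, *Cadm1* (0.97) and *Sostdc1* (0.96) with *Cd34*, and *Gpr34* (0.97) and *0610043K17Rik* (0.96) with *Postn*. With the transcription factors they were *Adamts18* and *Sod1* (each 0.98) for *Lhx2*, *Acsl4* (0.99) and *Aftph* (0.98) for *Sox9*, *Igfbp4* and *Fam117a* (each 0.99) for *Nfatc1*, and *Mtr* and *Prpf6* (each 0.97) for *Tcf7l1*. With the receptors and *Krt79* they were *Nab2* (0.99) and *Dio2* (0.98) for *Lgr5*, *Creb3* and *Acot1* (each 0.98) for *Lrig1*, and *Gas8* and *Fgfr1op* (each 0.98) for *Krt79*. *Gpr34*, *0610043K17Rik* and *Adamts18* had a mean of 0.862, 0.542 and 0.786 CPM, near the floor of detection, so their likeness to *Postn* and *Lhx2* rests on few counts. Over the 6 libraries other than *Grhl3*-cKO unwounded these values were 0.89 (*Krt15* with *Tmed3*) to 0.996 (*Sox9* with *Acsl4*), and without WT wounded replicate 1 they were 0.93 (*Tcf7l1* with *Prpf6*) to 0.997 (*Krt15* with *Tmem65*). No gene of the set was among the nearest 2 of another member.

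The first comparison asks how follicle genes stood in WT keratinocytes at the wound margin. Of the 10 genes, 4 were lower in wounded than in unwounded WT libraries. *Lhx2* had a fitted log2 fold change of -0.87 ± 0.24 (SE), *Cd34* one of -0.74 ± 0.26, *Krt79* one of -0.48 ± 0.21 and *Krt15* one of -0.40 ± 0.13. Both keratins of the set thus stood lower at the wound margin, and *Lhx2* was at 0.55 of its unwounded level. The other members were closer to their unwounded levels. Those of *Lrig1* (-0.33 ± 0.17), *Nfatc1* (-0.31 ± 0.17), *Lgr5* (-0.27 ± 0.22), *Sox9* (-0.17 ± 0.17) and *Postn* (-0.13 ± 0.15) were below 0. *Tcf7l1* alone among the 10 had a value above 0, 0.33 ± 0.38, smaller than its error.

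By edgeR's quasi-likelihood test, 4 of 10 members had an unadjusted P under 0.05 and were lower, and 0 were higher. Among all genes tested, 1.67% were called lower and 3.18% higher by this rule. For 7 members (*Krt15*, *Krt79*, *Cd34*, *Lhx2*, *Lgr5*, *Lrig1* and *Nfatc1*) both WT wounded libraries lay below both unwounded ones, as did 18.3% of all genes. The median log2 fold change of the members was -0.32, beside 0.0034 over all genes. Nothing is read from these counts, because the members were chosen with the same values in view. After Benjamini-Hochberg adjustment 0 members and 4 genes in all (0.0285% of those tested) passed 0.05. DESeq2 also gave 4 members at an unadjusted P under 0.05, and a minimum of 10 counts in every library gave 3, without *Krt79*.

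These calls turned on single libraries. The number of all genes called lower also differed between these fits, so nothing is read from the member counts. Without WT wounded replicate 1 the number of members called lower was 7, with *Sox9* (-0.46), *Lrig1* (-0.55) and *Nfatc1* (-0.54) added, and *Tcf7l1* turned to -0.28. Without WT wounded replicate 2 it was 1 (*Lhx2*), and *Krt15* was at -0.36, *Cd34* at -0.65, *Krt79* at -0.26 and *Sox9* at 0.065. Without WT unwounded replicate 1 it was 2, with *Krt15* at -0.35 and *Krt79* at -0.24. Without WT unwounded replicate 2 it was 3, with *Cd34* at -0.41, and without the *Grhl3*-cKO unwounded library it was 3, with *Krt79* at -0.47. *Lhx2* was called in each of these fits.

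The second comparison asks whether follicle genes at the wound margin differed with the *Grhl3* genotype label. Most members were close to each other in the labelled groups, and *Postn* and *Tcf7l1* were the members called. *Postn* was lower in wounded keratinocytes labelled *Grhl3*-cKO than in WT wounded ones, at a fitted log2 value of -0.43 ± 0.15. *Tcf7l1* was also lower, at -0.83 ± 0.39, a value made from 304 and 137 counts in the WT and 109 and 112 counts in the *Grhl3*-cKO libraries. *Krt15* was the single member with a value above 0, at 0.21 ± 0.13, and both libraries labelled *Grhl3*-cKO lay above both WT ones. For *Sox9* (-0.33 ± 0.17), *Lgr5* (-0.32 ± 0.23), *Lhx2* (-0.29 ± 0.24), *Lrig1* (-0.18 ± 0.17), *Cd34* (-0.15 ± 0.26), *Krt79* (-0.14 ± 0.21) and *Nfatc1* (-0.07 ± 0.17) the groups overlapped. This comparison uses the same WT wounded libraries as the first.

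Here 2 of 10 members had an unadjusted P under 0.05 and were lower and 0 were higher, beside 2.08% and 1.96% of all genes. Both libraries labelled *Grhl3*-cKO lay below both WT wounded ones for *Tcf7l1* and *Postn*, as for 17.2% of all genes, and above them for *Krt15*, as for 13.8%. With edgeR 0 genes of those tested (0%) had an adjusted p under 0.05, against 567 at an unadjusted P under 0.05, and DESeq2 gave 3 genes at an adjusted p under 0.05. *Tcf7l1* was not called with DESeq2, with at least 10 counts required in every library, with a replicate block or with only the 4 libraries compared, whereas *Postn* was called in each of these. The members' median log2 fold change was -0.24, beside -0.0092 over all genes.

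Leaving out WT wounded replicate 1, the library with high hair shaft genes, left 0 members called and 5 with a fitted value below 0. *Postn* was then at -0.36 and *Tcf7l1* at -0.23, while *Lhx2* (0.14), *Krt79* (0.14), *Nfatc1* (0.15) and *Lrig1* (0.035) turned above 0. Without WT wounded replicate 2 there were 4 called, with *Lhx2* at -0.62 and *Sox9* at -0.56 added. Without *Grhl3*-cKO wounded replicate 1 only *Postn* was called, with *Tcf7l1* at -0.79 and *Krt79* at 0.16. Without *Grhl3*-cKO wounded replicate 2 there were 3, *Postn*, *Krt79* (-0.50) and *Lgr5* (-0.60), with *Tcf7l1* at -0.86 and *Cd34* at 0.066. Without the *Grhl3*-cKO unwounded library *Tcf7l1* was at -0.83 and no longer called. The number of all genes called also differed between these fits, so nothing is read from the member counts.

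A fit over all 7 libraries, with terms for genotype and wounding, compares the 4 wounded with the 3 unwounded libraries. Most follicle stem cell genes of the set were lower after wounding in this fit, in which genes of other cell types also differed, as given further on. *Cd34* had a log2 fold change of -1.04 ± 0.21, *Lhx2* one of -0.90 ± 0.18, *Lgr5* one of -0.75 ± 0.22 and *Krt15* one of -0.64 ± 0.13. *Cd34* thus stood at 0.49 of its unwounded level and *Lgr5*, the R-spondin receptor, at 0.60 of its own. The values of *Nfatc1* (-0.62 ± 0.16), *Lrig1* (-0.48 ± 0.14) and *Sox9* (-0.37 ± 0.15) were also more than 2 standard errors below 0. *Krt79* (-0.22 ± 0.20), *Postn* (-0.20 ± 0.12) and *Tcf7l1* (-0.11 ± 0.32) lay within 2 standard errors of 0.

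In that fit 7 of 10 members had an unadjusted P under 0.05 and were lower, beside 2.93% of all genes, and 0 were higher, beside 3.69%. For 6 of them, *Krt15*, *Cd34*, *Lhx2*, *Lgr5*, *Lrig1* and *Nfatc1*, the 4 wounded libraries all lay below the 3 unwounded ones, as did 3.7% of all genes. The adjusted p passed 0.05 for 0 members and for 5 genes in all, or 0.0356%. Leaving out the single *Grhl3*-cKO unwounded library leaves wounding to be fitted from the WT libraries alone, as in the first comparison. This also holds for the genes of other lists given below without that library in this fit. The number of all genes called also differed between the fits that left out a library, so nothing is read from the counts. Without the single *Grhl3*-cKO unwounded library 3 members were called, *Krt15*, *Cd34* and *Lhx2*, with *Lgr5* at -0.27, *Nfatc1* at -0.31, *Lrig1* at -0.33 and *Sox9* at -0.16, and *Tcf7l1* turned to 0.33. *Sox9* also lost its call without WT wounded replicate 2 (-0.30, with *Tcf7l1* at 0.017), *Grhl3*-cKO wounded replicate 1 (-0.32) or replicate 2 (-0.34), and *Krt79* gained one without the last of these (-0.38).

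**Figure D2:**
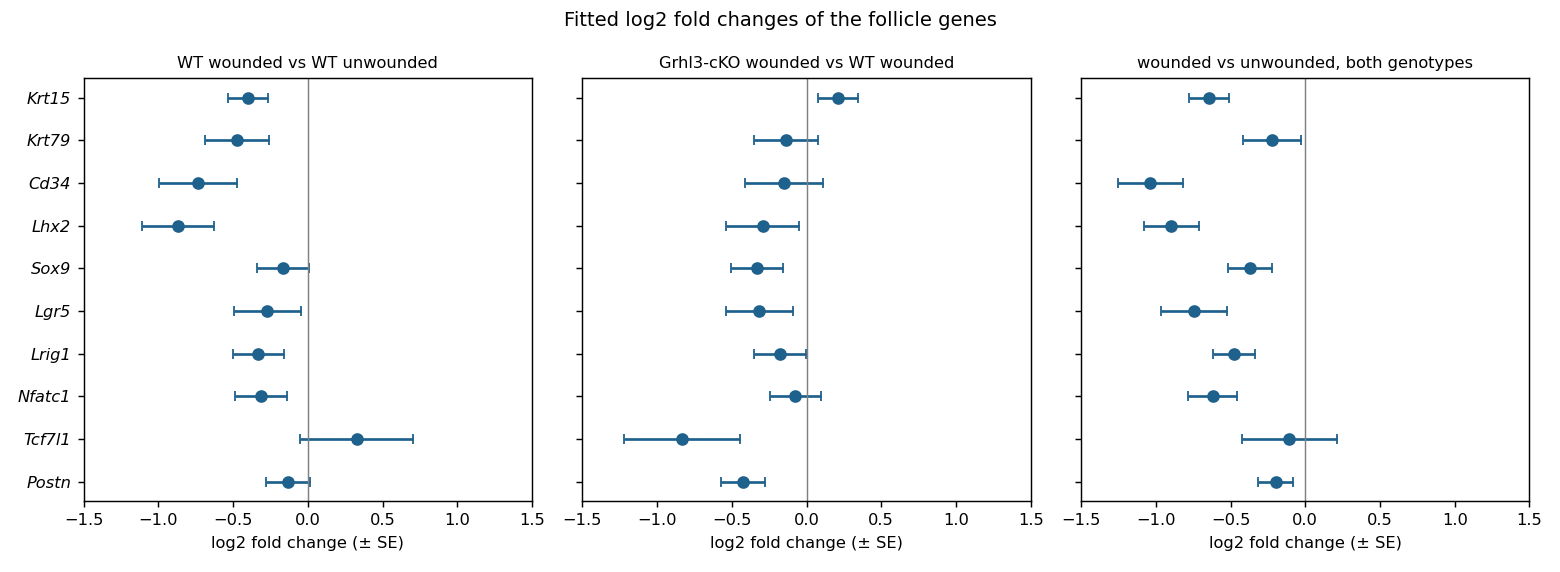
Fitted log2 fold changes of the 10 genes, with bars of 1 standard error, for WT wounded against unwounded, *Grhl3*-cKO wounded against WT wounded, and wounded against unwounded over both genotype labels. The vertical line marks 0. The values of *Cd34* are -0.74, -0.15 and -1.04.

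Within the libraries labelled *Grhl3*-cKO, the wounded keratinocytes were set against a single unwounded library, with no test. *Cd34* and *Lgr5*, the bulge surface protein and the R-spondin receptor, lay lowest. *Cd34* differed by a fitted log2 value of -1.47 and *Lgr5* by -1.41, and these were the 2 members that passed the 2-fold rule, which asks for both wounded libraries to be at least 2-fold below the unwounded one on normalized log2 CPM. On CPM without the normalization factor *Nfatc1* passed as well, which made 3. Against the same unwounded library 8 of 12 endothelial genes and 3 of 7 fibroblast genes (*Col1a1*, *Col3a1* and *Dcn*, named after their values were seen) were higher by this rule, and their part in the values of the members was not tested. That rule took 3.89% of all genes as lower and 5.69% as higher. *Nfatc1* (-1.06), *Krt15* (-0.999), *Lhx2* (-0.94), *Tcf7l1* (-0.73), *Lrig1* (-0.69), *Sox9* (-0.66) and *Postn* (-0.30) had both wounded libraries below the unwounded one without passing the rule. *Krt79*, the upper-follicle keratin, was at -0.18 in one wounded library and 0.46 in the other. The median over the members was -0.84, beside 0.022 over all genes. With 1 wounded library left out, 3 members met the rule without replicate 1 (*Nfatc1* added) and 4 without replicate 2 (*Krt15* and *Lhx2* added). Since the unwounded library also differs from the others in *Xist* and Y-linked genes, wounding, sex, mouse and library cannot be told apart in this comparison.

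The summed level of the 10 genes was 7614 and 7081 CPM in WT unwounded, 6268 and 5116 CPM in WT wounded, 8509.6 CPM in *Grhl3*-cKO unwounded, and 4889.5 and 5829 CPM in *Grhl3*-cKO wounded libraries. *Krt15* was the most abundant of them in every library. Other genes of the same compartments were read from lists of markers.

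Of 15 other genes of the bulge and outer follicle, 2 were lower and 0 higher at an unadjusted P under 0.05 in WT wounded against unwounded keratinocytes, with a list median of -0.29. They were *S100a4*, a calcium-binding protein (-1.34 ± 0.34, edgeR adjusted p = 0.398), and the T-box gene *Tbx1* (-0.57 ± 0.26). *S100a4* kept its call in every fit that left out 1 library, from -1.76 to -1.02, whereas *Tbx1* lost it without WT unwounded replicate 1 (-0.64) or 2 (-0.50), WT wounded replicate 2 (-0.36), or *Grhl3*-cKO wounded replicate 1 (-0.57) or 2 (-0.57). Between the wounded groups *Runx1*, a Runt-domain factor of follicle stem cell activation, was lower in the libraries labelled *Grhl3*-cKO (-0.54 ± 0.18, and -0.36 without WT wounded replicate 1, where the call was lost). *S100a6* had the highest mean of the list, with 234 to 354 CPM, though it was below *Fst* in the *Grhl3*-cKO unwounded library. Over both genotypes 4 of the 15 were lower, *S100a4* (-1.12), *Fst* (-0.65), *Dkk3* (-0.52) and *Foxc1* (-0.51), the last 3 named after their values were seen. Without the *Grhl3*-cKO unwounded library *Fst* (-0.30), *Dkk3* (-0.18) and *Foxc1* (-0.38) were not called. Nor was *Dkk3* without WT unwounded replicate 2 (-0.49) or *Grhl3*-cKO wounded replicate 2 (-0.38), or *Foxc1* without WT unwounded replicate 1 (-0.46), WT wounded replicate 2 (-0.39) or *Grhl3*-cKO wounded replicate 1 (-0.38). *Fst*, which encodes the activin and BMP antagonist follistatin, was also the 1 gene of the list past the 2-fold rule in the libraries labelled *Grhl3*-cKO, at 333 CPM unwounded and 159 and 147 CPM wounded. The list summed to 1234 and 1215 CPM in WT unwounded, 1203 and 973 CPM in WT wounded, 1201 CPM in *Grhl3*-cKO unwounded, and 880.4 and 890.01 CPM in *Grhl3*-cKO wounded libraries.

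Of 8 other upper-follicle genes, 2 were lower in WT wounded keratinocytes, *Cst6*, a cystatin (-0.71 ± 0.26), and *Defb6*, a beta-defensin (-0.68 ± 0.29), like *Krt79* itself. Neither call held without WT unwounded replicate 1 (-0.38 for each) or WT wounded replicate 2 (-0.39 and -0.53), nor did that of *Defb6* without the *Grhl3*-cKO unwounded library (-0.67). Between the wounded groups, *Krt17*, a keratin of the outer root sheath that is also made by stressed epidermis, was lower in the libraries labelled *Grhl3*-cKO (-0.71 ± 0.17). *Krt17* kept its call in every fit that left out 1 library, from -0.86 to -0.53. The edgeR adjusted p of *Krt17* was 0.783 between the wounded groups. In unwounded keratinocytes *Krt17* was at 943 CPM in the single library labelled *Grhl3*-cKO and at 2101 and 1641 CPM in WT. Its log2 fold change in WT wounded against unwounded keratinocytes was 0.17 ± 0.17, not called. *Krt17* was also the most abundant gene of the list, which summed to 3262 and 2460.2 CPM in WT unwounded, 3304 and 2492 CPM in WT wounded, 1652 CPM in *Grhl3*-cKO unwounded, and 1824 and 2244 CPM in *Grhl3*-cKO wounded libraries. Over both genotypes *Lgr6* (-0.47) and *Gata6* (-0.55) were lower, and by the 2-fold rule *Klk10* was higher, all 3 named after their values were seen. *Lgr6* and *Gata6* were not called without WT unwounded replicate 1 (-0.43 and -0.55), WT wounded replicate 2 (-0.38 and -0.51) or the *Grhl3*-cKO unwounded library (-0.32 and -0.26), nor *Gata6* without *Grhl3*-cKO wounded replicate 1 (-0.43).

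Sebaceous genes, which lie beside the upper follicle, showed 0 of 8 called in either direction in WT wounded against unwounded or between the wounded groups. Over both genotypes *Mgst1* (-0.56), *Elovl3* (-0.79) and *Pparg* (-0.65) were lower, and *Pparg* also passed the 2-fold rule, all named after their values were seen. None of the 3 was called without the *Grhl3*-cKO unwounded library (-0.31, -0.62 and -0.32), nor *Pparg* without WT unwounded replicate 2 (-0.67), WT wounded replicate 2 (-0.63) or *Grhl3*-cKO wounded replicate 1 (-0.62) or 2 (-0.56). *Scd1*, a desaturase, was the most abundant gene, at 651 to 899 CPM. The sum was 737 and 1012 CPM in WT unwounded, 895 and 736 CPM in WT wounded, 959 CPM in *Grhl3*-cKO unwounded, and 746 and 867 CPM in *Grhl3*-cKO wounded libraries.

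A further list held genes of the pathways that act on follicle stem cells, WNT, Hedgehog, BMP and FGF. Of 16, 0 were called in WT wounded against unwounded keratinocytes and 0 between the wounded groups, with list medians of -0.08 and 0.041. *Ctnnb1*, which encodes the partner of TCF7L1, was the most abundant, at 472 to 536 CPM. Over both genotypes *Axin2*, a WNT target, was higher (0.38) and *Wnt7b* (-0.41), *Id1* (-0.50) and *Id2* (-1.07) were lower, and *Id2* was also lower by the 2-fold rule, all named after their values were seen. None of the 4 was called without the *Grhl3*-cKO unwounded library (0.43, -0.36, -0.30 and -0.45). *Axin2* was not called without WT unwounded replicate 1 (0.32), WT wounded replicate 2 (0.29) or *Grhl3*-cKO wounded replicate 2 (0.30), nor *Wnt7b* without WT unwounded replicate 2 (-0.40), WT wounded replicate 1 (-0.32) or *Grhl3*-cKO wounded replicate 2 (-0.34). The sum ran from 1634.9 to 1835 CPM over the 7 libraries.

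Hair germ, matrix and shaft genes moved with 1 library. In WT wounded against unwounded keratinocytes 4 of 13 were higher, *Tchh*, which encodes trichohyalin, and the keratins *Krt25*, *Krt35* and *Krt31*, the last named after its values were seen. *Krt31* was at 3.06 CPM in WT wounded replicate 1 and at most 0.0657 CPM elsewhere. It did not pass the filter without that replicate or without the *Grhl3*-cKO unwounded library, and was called in 1 of the other 5 fits that left out a library, the one without WT wounded replicate 2. *Krt25* was at 10.6 CPM in WT wounded replicate 1, 0.222 CPM in *Grhl3*-cKO unwounded and 0 in the other 5 libraries. *Krt35* was at 10.1 CPM in the same replicate and at most 0.350 CPM elsewhere, and neither passed the filter without that replicate or without the *Grhl3*-cKO unwounded library. *Krt35* was also not called without WT unwounded replicate 2. *Tchh*, the most abundant gene of the list, had a log2 fold change of 1.35 ± 0.46, which was 1.23 and not called without WT unwounded replicate 2 and -0.32 without WT wounded replicate 1. Between the wounded groups 4 were lower, *Tchh* (-1.87 ± 0.47, and -0.20 without WT wounded replicate 1), *Krt25*, *Krt35* (not called without *Grhl3*-cKO wounded replicate 1) and *Krt75* (-1.64 ± 0.74), the last again named after its values were seen. *Krt75* was not called without WT wounded replicate 1 (-0.49), the *Grhl3*-cKO unwounded library (-1.63) or *Grhl3*-cKO wounded replicate 1 (-1.04). The list summed to 97.2 and 82.4 CPM in WT unwounded, 362 and 66.9 CPM in WT wounded, 72.2 CPM in *Grhl3*-cKO unwounded, and 50.4 and 76.2 CPM in *Grhl3*-cKO wounded libraries. All 10 follicle members were higher in WT wounded replicate 1 than in replicate 2, *Krt15*, *Krt79*, *Cd34* and *Postn* included, and the part of hair shaft cells in their values was not tested.

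The sort also takes interfollicular keratinocytes. Of 8 basal genes, *Itgb1*, an integrin chain, was higher in WT wounded keratinocytes (0.55 ± 0.20, not called without WT unwounded replicate 2, at 0.51, or WT wounded replicate 2, at 0.28). It was lower in the wounded libraries labelled *Grhl3*-cKO (-0.56 ± 0.20, not called without WT wounded replicate 2, at -0.29, or *Grhl3*-cKO wounded replicate 2, at -0.32). *Krt14*, whose promoter drives the Cre, was the basal gene with the highest mean over the 7 libraries, at 12190.4 to 19442 CPM, though below *Krt5* in the *Grhl3*-cKO unwounded library, and the list summed to 35118 to 48324 CPM. Of 7 suprabasal genes analysed (*Flg* was not analysed here), *Krt1* (-0.66 ± 0.20), *Krt10* (-0.45 ± 0.16) and *Sbsn* (-0.37 ± 0.15) were lower in WT wounded keratinocytes. *Krt1* was not called without WT unwounded replicate 2 (-0.49) or WT wounded replicate 1 (-0.32), *Krt10* without WT unwounded replicate 1 (-0.40) or WT wounded replicate 1 (-0.25), and *Sbsn* without any 1 of the 4 WT libraries (-0.40 to -0.36). Between the wounded groups *Krt10* (0.87 ± 0.16), *Krt1* (0.77 ± 0.20), *Dsg1a* (0.53 ± 0.16) and *Krtdap*, the last named after its values were seen, were higher in the libraries labelled *Grhl3*-cKO, where *Dsg1a* (0.39) and *Krtdap* (0.32) were not called without WT wounded replicate 1, nor *Krtdap* without *Grhl3*-cKO wounded replicate 1 (0.59). *Krt1* was the suprabasal gene with the highest mean, and the list summed to 6306 and 6958 CPM in WT unwounded, 3706 and 5406 CPM in WT wounded, 9530.2 CPM in *Grhl3*-cKO unwounded, and 6740.2 and 8413 CPM in *Grhl3*-cKO wounded libraries. The part of a changed share of interfollicular cells in the follicle genes' values was not tested.

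*Cd34* is also made by endothelial cells, and *Postn* by fibroblasts. Of 12 endothelial genes 5 were higher in WT wounded keratinocytes, *Flt1* (4.44 ± 0.97, adjusted p = 0.203), *Kdr* (4.20 ± 1.68), *Cdh5* (3.46 ± 1.16), and *Pecam1* and *Plvap*, the last 2 named after their values were seen. *Flt1* kept its call in every fit that left out 1 library, *Cdh5* lost it without WT unwounded replicate 1 (2.61) or WT wounded replicate 1 (2.77), and *Kdr* without WT unwounded replicate 2 (3.21), WT wounded replicate 1 (1.32) or *Grhl3*-cKO wounded replicate 1 (4.19). *Pecam1* (2.49 ± 1.16) kept its call only without WT unwounded replicate 2 or WT wounded replicate 2, and was at 1.58 without WT unwounded replicate 1, 1.51 without WT wounded replicate 1, and 2.49 to 2.50 without any 1 of the *Grhl3*-cKO libraries. *Plvap* (1.86 ± 0.85) kept its call only without the *Grhl3*-cKO unwounded library or *Grhl3*-cKO wounded replicate 1, and was at 1.74 to 1.95 in the other 5 fits. Between the wounded groups *Flt1* was lower in the libraries labelled *Grhl3*-cKO (-1.86 ± 0.84), and not so called without WT wounded replicate 1 (-2.02) or 2 (-1.68) or *Grhl3*-cKO wounded replicate 2 (-1.35). The endothelial sum was 8.59 and 9.94 CPM in WT unwounded, 40.9 and 26.9 CPM in WT wounded, 2.82 CPM in *Grhl3*-cKO unwounded, and 18.8 and 27.4 CPM in *Grhl3*-cKO wounded libraries. *Vwf* had the highest mean over the 7, and *Flt1* was above it in both WT wounded libraries. It was thus higher in all 4 wounded libraries, in which *Cd34* was lower. *Cdh5*, *Kdr* and *Flt1* had 0 counts in the *Grhl3*-cKO unwounded library, the one with the highest *Cd34*.

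Fibroblast genes summed to 53.01 and 53.01 CPM in WT unwounded, 44.3 and 70.1 CPM in WT wounded, 52.2 CPM in *Grhl3*-cKO unwounded, and 41.3 and 60.1 CPM in *Grhl3*-cKO wounded libraries, far below the 787 to 1310.1 CPM of *Postn*. *Col6a1* was the most abundant. *Lum* had 0 counts in 4 libraries and at most 0.454 CPM in the others. Of 7 tested, *Col1a2* was higher in WT wounded keratinocytes (1.17 ± 0.41), and not so called without WT unwounded replicate 2 (0.96) or WT wounded replicate 2 (0.87), and 0 differed between the wounded groups, where *Postn* was lower. The part of either cell type in the values of *Cd34* and *Postn* was not tested.

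The remaining lists hold few detected genes. Of 5 mural and smooth muscle genes tested, *Acta2* (3.21 ± 0.78) and *Tagln* (3.24 ± 1.06, but 0.34 without WT wounded replicate 1) were higher in WT wounded keratinocytes. Between the wounded groups *Acta2* (-2.35 ± 0.74), *Tagln* (-2.47 ± 1.02) and *Cspg4* (-0.54 ± 0.22) were lower in the libraries labelled *Grhl3*-cKO. Without WT wounded replicate 1 these were -1.95, 0.42 and -0.15, without *Grhl3*-cKO wounded replicate 1 *Acta2* was -1.56 and *Tagln* -2.69, and without *Grhl3*-cKO wounded replicate 2 *Tagln* was -2.28 and *Cspg4* -0.42, none of them called. *Cspg4*, most abundant at 63.6 to 154 CPM, is also made by follicle keratinocytes, and the list summed to 72.6 to 156 CPM. Leukocyte genes summed to at most 7.63 CPM, with *Cd68* highest by mean and *Cd3e* at 0 in every library, and 1 of 6 tested, *Lyz2*, was higher in WT wounded keratinocytes, from 0 counts in both unwounded libraries to 16 and 37. Melanocyte genes summed to at most 12.7 CPM, with *Kit* highest by mean, and 2 of 5 were higher there, *Dct* (2.83 ± 0.95) and *Tyr* (2 counts in the 2 unwounded libraries and 40 and 25 in the wounded ones). *Dct* was not called without WT unwounded replicate 2 (2.205) or WT wounded replicate 1 (2.26), nor *Tyr* without WT unwounded replicate 1 or WT wounded replicate 1. Merkel cell genes summed to at most 7.15 CPM, with *Krt18* highest by mean, *Krt20*, *Atoh1* and *Sox2* at 0 in every library and 0 of 2 called. Schwann cell genes summed to 31.9 to 56.9 CPM, nearly all of it *Mbp*, which was higher in the wounded libraries labelled *Grhl3*-cKO (0.56 ± 0.25, not called without WT wounded replicate 1, at 0.37, or *Grhl3*-cKO wounded replicate 1, at 0.44).

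In the fit over both genotypes, where 7 members were lower, other cell types differed too. The suprabasal genes *Sbsn* (-0.47 ± 0.12), *Krt10* (-0.45 ± 0.13) and *Krt1* (-0.49 ± 0.18) were lower, *Krt1* not without WT unwounded replicate 2 (-0.36) or WT wounded replicate 1 (-0.27). Of the 12 endothelial genes 7 were higher and 0 lower, among them *Flt1* (4.77 ± 0.84) and *Cdh5* (4.05 ± 1.06), which kept their calls with any 1 library left out. The other 5, *Kdr*, *Egfl7*, *Pecam1*, *Vwf* and *Plvap*, named after their values were seen, did not. Without the *Grhl3*-cKO unwounded library *Vwf* was at 1.10 in place of 2.18, *Egfl7* at 3.28 and *Pecam1* at 2.50. Without WT wounded replicate 1 *Kdr* was at 3.40, *Pecam1* at 2.21 and *Plvap* at 1.58. *Egfl7* was at 3.61 without WT wounded replicate 2, and *Plvap* at 1.60 without WT unwounded replicate 2 and 1.46 without *Grhl3*-cKO wounded replicate 2, none of these called. *Acta2* (3.51 ± 0.70), *Dct* (2.86 ± 0.73) and *Lyz2* were higher and kept their calls in the same way. Of the 7 fibroblast genes, *Dcn* (3.37 ± 1.36), *Col3a1* (1.76 ± 0.76) and *Col1a2* (0.88 ± 0.32) were higher and *Col6a1* (-0.70 ± 0.23) was lower, *Dcn* and *Col3a1* being named after their values were seen. Without the *Grhl3*-cKO unwounded library *Dcn* (2.55), *Col3a1* (0.67) and *Col6a1* (-0.39) were not called. Nor was *Dcn* without WT wounded replicate 1 (3.67), *Col1a2* without WT unwounded replicate 2 (0.71) or WT wounded replicate 2 (0.67), or *Col3a1* without either of these (1.57 and 1.75) or *Grhl3*-cKO wounded replicate 1 (1.75) or 2 (1.62). Of the 5 mural genes *Cspg4* (-0.67 ± 0.20) was lower, though not without the *Grhl3*-cKO unwounded library (-0.29), and *Des*, named after its values were seen, was higher, at 2 counts over the 3 unwounded libraries and 0 to 50 in the wounded ones. *Des* was not called without WT unwounded replicate 2 (4.09), WT wounded replicate 2 (2.83), the *Grhl3*-cKO unwounded library (3.43) or *Grhl3*-cKO wounded replicate 2 (4.32). Of the 13 hair germ, matrix and shaft genes, *Krt35* (5.20 ± 1.91) and *Krt31* (6.91 ± 2.95) were higher, the last named after its values were seen. Neither passed the filter without WT wounded replicate 1 or without the *Grhl3*-cKO unwounded library. *Krt35* was not called without WT unwounded replicate 2 (4.28). Nor was *Krt31* without WT unwounded replicate 1 (6.54) or 2 (6.46) or *Grhl3*-cKO wounded replicate 1 (6.91). The part of these cell types in the follicle members' values was not tested.

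ATAC-seq peaks show where chromatin around the follicle genes was open enough to be listed. A gene was counted when a peak overlapped its body or the 5 kb on either side (mm10). In WT unwounded keratinocytes 3 of 10 members had such a peak, beside 50.7% of 13508 tested genes with a position. In WT wounded keratinocytes 8 members had one, beside 84.6% of genes. The libraries labelled *Grhl3*-cKO had 6 members with a peak unwounded and 6 wounded, beside 81% and 68.8% of genes. The members' peaks numbered 3, 28, 20 and 14 in WT unwounded, WT wounded, *Grhl3*-cKO unwounded and *Grhl3*-cKO wounded keratinocytes, in lists of 10769, 36872, 29364 and 22474 peaks covering 4425 kb, 18009.9 kb, 13481 kb and 10042 kb. Over the 13508 genes the mean was 0.667, 1.88, 1.58 and 1.20 peaks per gene in the same order. The lists differ in length, and the part of length in the members' counts was not tested. With each list reduced to its 10769 peaks of smallest p, 3, 3, 4 and 3 members had a peak. For these shortened lists no share over all genes is given here, so nothing is read from their counts.

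The most abundant keratins of the set had no listed peak in any condition, *Krt15* at chr11:100131758-100135928 and *Krt79* at chr15:101929332-101940324, both on the minus strand. Both genes were read at 858 CPM or more in every library, so the absence of a listed peak does not follow their RNA. The genes with most peaks were *Lrig1*, *Lgr5*, *Tcf7l1* and *Nfatc1*, which are also the longest, at 95630 to 162877 bases. Merged over conditions, the members' peaks made 32 regions. Of these 11 were listed in WT wounded keratinocytes alone, 9 in all conditions but WT unwounded, 4 in WT wounded and *Grhl3*-cKO unwounded, 3 in *Grhl3*-cKO unwounded alone and 3 in all 4 conditions.

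Regions listed in all 4 conditions lay at *Nfatc1*, *Sox9* and *Cd34*. At *Nfatc1*, the quiescence factor, it was an intron region at chr18:80655591-80656131, with a fold enrichment over local background of 4.10 in WT unwounded, 5.20 in WT wounded, 4.75 in *Grhl3*-cKO unwounded and 4.19 in *Grhl3*-cKO wounded keratinocytes. *Sox9* had one over its start, at chr11:112781124-112782601, with 4.37, 3.72, 4.05 and 3.61 in the same order. At *Cd34*, on the plus strand at chr1:194938819-194961279, the region lay downstream of the gene at chr1:194962267-194963155, with 3.97, 5.61, 5.30 and 4.87. With 1 list per condition these enrichments have no error, and their differences were not tested.

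*Lrig1*, on the minus strand at chr6:94604529-94700158, had 0 peaks in WT unwounded, 6 in WT wounded, 4 in *Grhl3*-cKO unwounded and 5 in *Grhl3*-cKO wounded keratinocytes. A peak over its start was listed in the last 3, with fold enrichments of 5.63, 3.89 and 4.27. Intron regions at chr6:94640348-94640644 (3.50, 4.94 and 4.20) and chr6:94646263-94646962 (4.18, 4.92 and 3.96) were listed in the same 3 conditions. *Lgr5*, the R-spondin receptor, lies on the minus strand at chr10:115450311-115587780 and had 0, 5, 5 and 3 peaks. Its intron region at chr10:115550030-115550591 had fold enrichments of 3.53, 4.13 and 6.37 in WT wounded, *Grhl3*-cKO unwounded and *Grhl3*-cKO wounded keratinocytes, while a peak over its start was listed in the first 2 of these, at 3.22 and 3.42. *Tcf7l1*, the TCF factor, on the minus strand at chr6:72626378-72789254, had 0, 6, 5 and 2 peaks. For *Lhx2* and *Postn* a single peak was listed, in WT wounded keratinocytes. That of *Lhx2* (3.62) lay in an untranslated exon at chr2:38350890-38351262, 131 bases from an annotated start. That of *Postn* (3.84) lay over its start at chr3:54360770-54361168, on the plus strand. With a fold enrichment of at least 4, neither was kept.

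**Figure D3:**
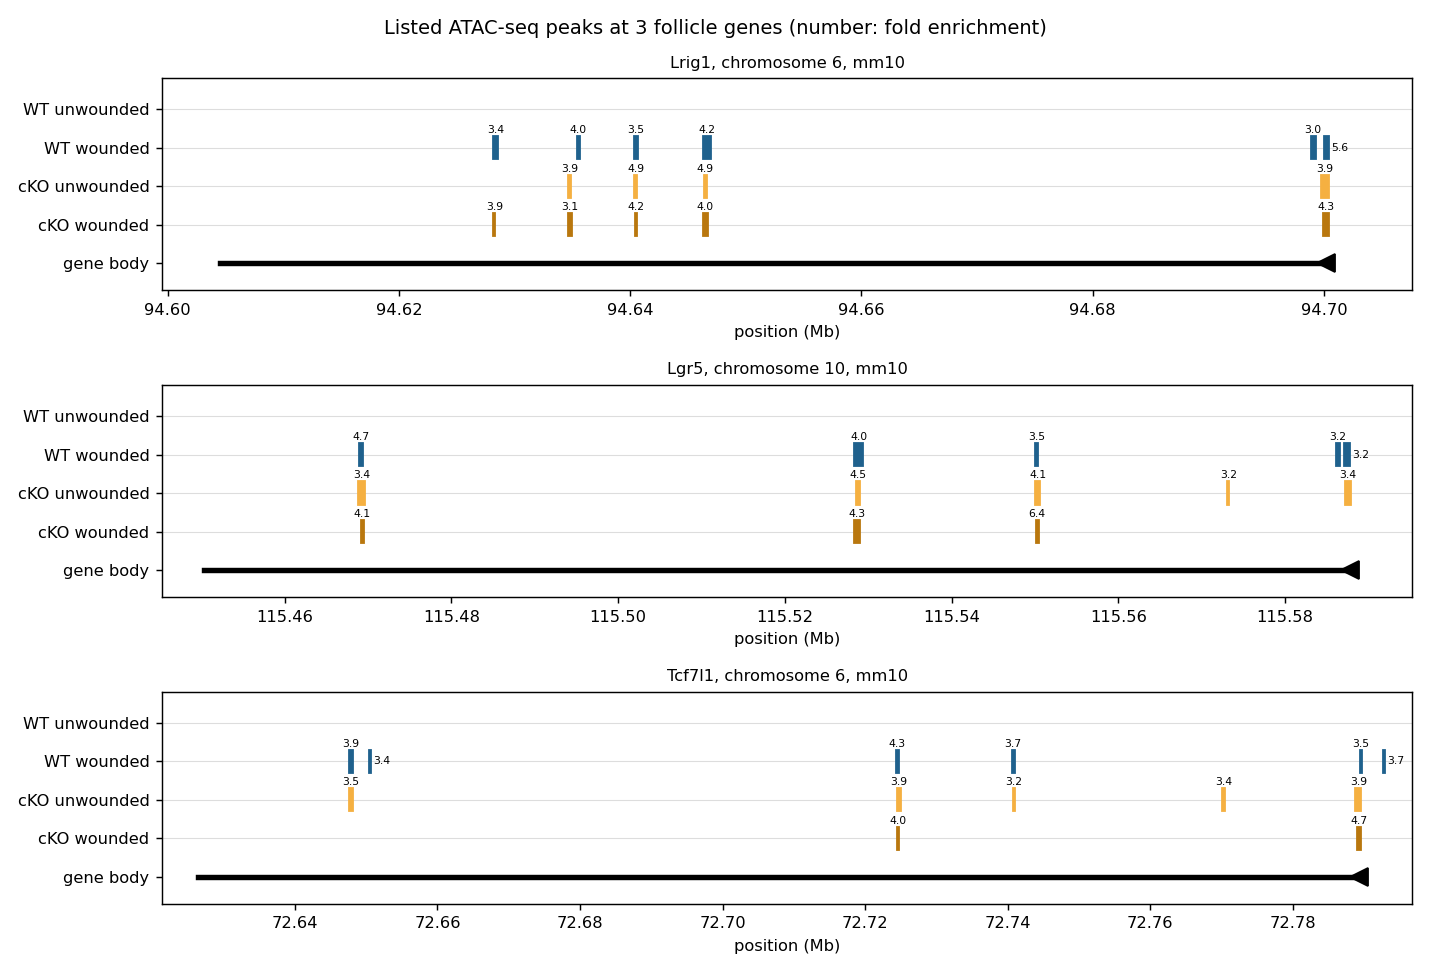
Maps of *Lrig1*, *Lgr5* and *Tcf7l1* on mm10, with position in Mb on the horizontal axis, a line for each ATAC-seq condition, boxes for listed peaks at their true width, and the fold enrichment beside each box. The black bar is the gene with an arrowhead at its start. No box stands on the WT unwounded line, while WT wounded has 6, 5 and 6 boxes.

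Promoter sequences were taken from RefSeq (GRCm38.p6), 250 bases before to 50 bases after a gene start. For *Krt79*, *Cd34*, *Lhx2*, *Lrig1*, *Tcf7l1* and *Postn*, 6 of the 10 members, there were 8 such promoters. *Krt15*, *Sox9*, *Lgr5* and *Nfatc1* had no entry. Both strands were searched for AACCGGTT, a Grainyhead-like motif, for its looser form AACCNGTT, which includes it, for the AP-1 motif TGANTCA, for the TCF and LEF motif CTTTGAT and for the SOX motif ACAANGG. None of these was in the 8 promoters. Of 32851 promoters in the table, 0.146% held the first, 2.09% the looser form, 7.81% the AP-1, 3.73% the TCF and LEF and 13.6% the SOX motif. No match says only that these letters are not in this window.

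The *Lrig1* promoter is shown because a peak over it was listed in 3 of 4 conditions, and the *Postn* promoter because its peak was listed in WT wounded keratinocytes alone. The bases are those before the RefSeq start, at chr6:94700146-94700395 on the minus strand for *Lrig1*, where the last few lie in the GENCODE first exon, and at chr3:54360857-54361106 on the plus strand for *Postn*. Neither sequence has capitals, since no searched motif was found.
Lrig1 promoter: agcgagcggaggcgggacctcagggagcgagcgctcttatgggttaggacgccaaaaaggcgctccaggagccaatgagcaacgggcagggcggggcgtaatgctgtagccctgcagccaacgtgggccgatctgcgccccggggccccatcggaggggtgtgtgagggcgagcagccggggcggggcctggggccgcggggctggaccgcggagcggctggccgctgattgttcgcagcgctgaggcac
Postn promoter: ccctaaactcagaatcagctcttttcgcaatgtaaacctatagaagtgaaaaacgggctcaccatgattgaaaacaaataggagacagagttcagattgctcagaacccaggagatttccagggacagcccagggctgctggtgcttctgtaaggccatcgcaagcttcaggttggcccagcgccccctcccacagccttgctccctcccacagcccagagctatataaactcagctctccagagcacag

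The same motifs were searched in 300 bases around the middle of each WT wounded peak. Near *Cd34*, *Lhx2*, *Lrig1*, *Tcf7l1* and *Postn* there were 15 such windows. The peaks near *Sox9*, *Lgr5* and *Nfatc1*, members without a promoter entry, were not among them. The AP-1 motif was in 2 (13.3%), the SOX motif in 3 (20%), and the others were in 0. The search over all genes covered 35480 of the 36872 WT wounded peaks. Among these windows the shares were 27.7% for AP-1, 13.5% for SOX, 0.304% and 3.87% for the Grainyhead-like forms and 3.96% for TCF and LEF. A match is a description of the letters and not a bound site.

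The windows with a match are shown as the sequence behind these counts, on the plus strand of GRCm38.p6, with the matched letters of either strand in capitals. At *Lrig1*, the ERBB inhibitor, 3 intron windows held a match. Window 1, at chr6:94640347-94640646, had the AP-1 motif and was listed in WT wounded and both *Grhl3*-cKO conditions. Window 2, at chr6:94635345-94635644, had the SOX motif followed by the AP-1 motif and was listed in WT wounded keratinocytes alone. Window 3, at chr6:94646463-94646762, had the SOX motif on the minus strand. At *Tcf7l1* an intron window at chr6:72740603-72740902 held the SOX motif.
Lrig1 window 1: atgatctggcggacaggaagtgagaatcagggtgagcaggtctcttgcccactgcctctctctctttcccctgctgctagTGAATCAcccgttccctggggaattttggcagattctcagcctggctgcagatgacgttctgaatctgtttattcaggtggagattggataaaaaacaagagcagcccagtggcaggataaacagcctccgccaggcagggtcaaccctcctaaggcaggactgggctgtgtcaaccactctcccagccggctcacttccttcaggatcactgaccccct
Lrig1 window 2: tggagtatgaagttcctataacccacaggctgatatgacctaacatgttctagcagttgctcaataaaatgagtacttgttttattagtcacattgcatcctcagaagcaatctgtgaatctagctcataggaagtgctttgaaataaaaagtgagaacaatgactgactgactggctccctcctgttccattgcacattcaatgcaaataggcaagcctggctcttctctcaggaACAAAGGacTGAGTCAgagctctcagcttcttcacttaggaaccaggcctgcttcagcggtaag
Lrig1 window 3: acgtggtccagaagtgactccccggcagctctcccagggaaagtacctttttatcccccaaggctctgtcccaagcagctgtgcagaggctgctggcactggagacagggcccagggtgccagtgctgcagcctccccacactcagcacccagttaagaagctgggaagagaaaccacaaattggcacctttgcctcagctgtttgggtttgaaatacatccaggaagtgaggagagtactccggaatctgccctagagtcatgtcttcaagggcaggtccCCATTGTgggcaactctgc
Tcf7l1 window: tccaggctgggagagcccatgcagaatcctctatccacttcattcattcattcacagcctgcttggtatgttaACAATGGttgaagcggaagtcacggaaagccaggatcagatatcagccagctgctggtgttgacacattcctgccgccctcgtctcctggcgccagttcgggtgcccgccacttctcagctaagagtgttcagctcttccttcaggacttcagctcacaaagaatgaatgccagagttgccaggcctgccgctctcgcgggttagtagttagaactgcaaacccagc

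The *Cd34* region is the one listed in all 4 conditions among genes with a promoter entry. The window around the middle of its WT wounded peak, chr1:194962542-194962841 on the plus strand of GRCm38.p6, lies downstream of the gene. It held none of the motifs and so has no capitals.
Cd34 window: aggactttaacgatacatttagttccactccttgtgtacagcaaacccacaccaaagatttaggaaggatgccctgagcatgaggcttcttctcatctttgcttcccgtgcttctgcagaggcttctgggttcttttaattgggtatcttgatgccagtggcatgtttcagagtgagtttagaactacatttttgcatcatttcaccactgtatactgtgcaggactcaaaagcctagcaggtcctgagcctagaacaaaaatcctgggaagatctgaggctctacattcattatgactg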

How the data were processed

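RNA was measured in 7 libraries and open chromatin in 4 conditions. For RNA-seq the authors deposited raw whole-number counts, 1 per gene symbol and library. Their methods name FastQC and kallisto with mm10, while the tables end in tallies of reads not counted on a gene, so the step that made the counts is not known here. Those tallies (ambiguous reads 1.34% to 1.45%, reads without a unique alignment 3.46% to 4.74%) were left out. For each peak the authors deposited a fold enrichment over local background, from broad peaks called by MACS2 after bowtie2 alignment to mm10. The deposited −log10 q-value gave a stricter peak list, the deposited −log10 p-value ranked peaks for lists of equal length, and the deposited score was not used.

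Counts were normalized by TMM, filtered by filterByExpr and fitted in 4 groups and tested two-sided by quasi-likelihood in edgeR, and P was adjusted over all genes tested by Benjamini-Hochberg. An additive fit of genotype and wounding served the comparison over both genotypes. The 2-fold rule used log2 CPM with a prior count of 2. CPM were taken over gene counts. The fit was tested on simulated data with 4-fold changes, larger than any fitted for a member. That test does not bear on the members' smaller changes. Exon lengths and positions came from GENCODE (mm10), sequences from RefSeq (GRCm38.p6). The tools were edgeR 4.0.16, DESeq2 1.42.0 and limma 3.58.1 in R 4.3.3, and pandas 2.3.3, NumPy 2.4.6 and matplotlib 3.10.9 in Python 3.11.15.

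The members and 14 marker lists were chosen with earlier results of these data known. Named genes were all members, the most abundant gene of each list, up to 3 genes per list with the smallest unadjusted P under 0.05 in each of the first 2 comparisons, any at an adjusted p under 0.05, the 2 genes most like each member, and *Grhl3*. Some results of genes in these lists are not reported here. Alternatives were DESeq2, RLE normalization, a replicate block, no filter, only the 4 libraries compared, each library left out, a minimum of 10 counts in every library, other prior counts and no scaling factor, and for peaks other distances, a fold enrichment of at least 4, a q of at most 0.01 and lists of equal length.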

Additional observations from a re-analysis of the deposited data

Results flagged for a closer look

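*Runx1* and *Cst6* had values of opposite sign under the genotype labels. For *Runx1* both WT wounded libraries lay above both WT unwounded ones (log2 fold change 0.38, not called). Both wounded libraries labelled *Grhl3*-cKO lay below the single unwounded one (-0.51). For *Cst6* both WT wounded libraries lay below the unwounded ones (-0.71) and both wounded libraries labelled *Grhl3*-cKO above the single unwounded one (0.47), but one of them by 0.089 and the other by 0.77. The WT value of *Cst6* was -0.38 without WT unwounded replicate 1 and -0.39 without WT wounded replicate 2, and neither was called. Other genes of the lists had opposite signs as well, among them the sebaceous gene *Cidea* (0.65 in WT, not called, and -0.85 in *Grhl3*-cKO), named after its values were seen. The difference between the genotypes was not tested for any of these genes, and each value for *Grhl3*-cKO rests on 1 unwounded library.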

How the results depend on the processing

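Over the alternatives, members' log2 fold changes kept their side of the 0.05 threshold in 119 of 130 values for WT wounded against unwounded, 117 of 130 for *Grhl3*-cKO wounded against WT wounded and 112 of 120 over both genotypes. Of these, 2, 6 and 2 values, none called, had turned sign. Causes were not tested unless stated.

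In WT wounded against unwounded, members called lower ranged from 1 to 7 with 1 library left out, and their median from -0.52 to -0.14. Genes at an adjusted p under 0.05 (4) were 24 with DESeq2, 96 with no filter, 0 with at least 10 counts in every library, 0 with only the 4 libraries compared, and 0 to 29 with 1 library left out. *Tchh* turned to -0.32 without WT wounded replicate 1, a library with 296 CPM of it, and was 2.09 without WT wounded replicate 2.

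In *Grhl3*-cKO wounded against WT wounded, members called lower (2) were 1 with DESeq2, at least 10 counts in every library or only the 4 libraries compared, and 0 to 4 with 1 library left out, with a median from -0.42 to -6.7e-04. Genes at an unadjusted P under 0.05 (567) ranged from 420 to 855. Genes at an adjusted p under 0.05 (0 with edgeR) were 3 with DESeq2, 51 with no filter and 0 to 21 with 1 library left out. *Tagln* turned to 0.42 without WT wounded replicate 1 and was -3.36 without WT wounded replicate 2.

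Over both genotypes, members called lower ranged from 3 to 7 with 1 library left out and their median from -0.67 to -0.32. Genes at an adjusted p under 0.05 (5) were 126 with DESeq2, 305 with no filter, 2 with at least 10 counts in every library and 0 to 119 with 1 library left out. By the 2-fold rule, which loosens when a wounded library is left out, 3 to 4 members and 2567 to 2732 genes passed, against 2 and 1346.

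With the replicate number as a replicate block, 1 member was called between the wounded groups (*Postn*) and 719, 596 and 888 genes had an unadjusted P under 0.05 in the 3 fits, against 680, 567 and 929. Deviations of same-numbered WT libraries correlated at 0.154 over 2 pairs, which does not establish pairing.

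For peaks, a fold enrichment of at least 4 left 8, 7 and 8 peaks near members in WT wounded, *Grhl3*-cKO unwounded and *Grhl3*-cKO wounded keratinocytes, and 5 members with a peak in WT wounded. Lists of equal length left 3, 5 and 3 peaks, and 3, 4 and 3 members with a peak. No share over all genes is given for these settings, so nothing is read from the counts.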

Other observations

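With 2 libraries per group, 1 library in *Grhl3*-cKO unwounded and 1 peak list per condition, the follicle values describe these samples. Leaving out a library of a group of 2 leaves it with 1, assumed to vary as the other groups do. Leaving out the single *Grhl3*-cKO unwounded library removes that group, and wounding is then fitted from the WT libraries alone. The lists of peaks differ in length, and a gene without a listed peak is not shown to be closed. The share of follicle cells in the sort was not measured. The labels name no hair cycle stage. Whether the response of any member to wounding differed between genotypes was not tested.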
